A study of Homo sapiens with 6 samples.

Results

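Antisense transcripts that were well expressed in A549 cells, a human lung adenocarcinoma line, were followed upon deletion of MIR21. They were chosen from a gene table by its antisense biotype and by a mean of at least 3 FPKM (fragments per kilobase of gene length, scaled to library size) over all 6 libraries, leaving out the names that start with SNHG or have the form MIR-HG, and EPB41L4A-AS1. This gave 466 genes out of 5525 antisense genes and 58174 listed genes, of which 1605 antisense genes and 16006 genes in all reached the mean of 0.5 FPKM that was required for testing. The rule used the level over both groups and not the difference between them. The mean was at least 3 FPKM in both groups for 379 of the 466 genes, in Ctrl alone for 44 and in MIR21-KO alone for 43. The genes just inside the threshold were CTD-3138B18.5 (3.01 FPKM) and TH2LCRR (3.02 FPKM), and NUTM2A-AS1 (2.99 FPKM) and RP3-402G11.28 (2.98 FPKM) were just outside. Another 4 genes reached the level but were left out by name (SNHG7, SNHG10, SNHG12 and MIR762HG).

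The 3 Ctrl libraries came from parental A549 cells. The 3 MIR21-KO libraries came from A549 cells in which the authors had deleted part of the MIR21 locus by Cas9 and paired guides, after which single cells had been sorted. How many clones stand behind the 3 libraries is not given, and traits of a clone cannot be told apart from the deletion. All cells were harvested 48 h after seeding, and polyA-selected, strand-specific libraries were sequenced. Libraries held 10631667 to 14345209 reads recovered from the table. The replicates carry numbers only, so that p-values measure the spread between these libraries, which may be technical. The mature miR-21 cannot be checked in polyA libraries: MIR21 was listed at 0 in all of them, whereas the overlapping VMP1 rose from 75.1 ± 3.83 to 143 ± 7.18 FPKM (SD, n = 3 each; log2 fold change 0.92, SE 0.08, limma FDR 0.000473). The epithelial keratins KRT7, KRT8, KRT18 and KRT19 were expressed (group means 88.3 to 673 FPKM), CDH1 fell from 8.18 to 2.86 FPKM (limma FDR 0.000175) and EPCAM was at 1.19 and 0.695 FPKM. The 7 markers of blood, endothelium and liver had group means of 0 to 0.0221 FPKM, COL1A2 was listed at 0, and the other fibroblast marker, COL1A1, was at 3.41 and 3.91 FPKM.

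An antisense transcript is read from the DNA strand opposite to another gene. Some start at the same promoter as the coding gene and run away from it, others lie across its exons and can pair with its mRNA, and a few, such as HOTAIRM1 in the HOXA cluster, have been studied as regulators of their neighbours. Many antisense and promoter-upstream RNAs are short-lived in the nucleus, where the RNA exosome and its cofactors remove them. MiR-21 acts on RNAs that carry a match to its seed, among which the mRNA of PDCD4, a tumour suppressor, is a textbook target.

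The mature miR-21-5p of RefSeq (GRCh38.p14, chr17:59841273-59841294, plus strand) is given with its seed, bases 2 to 8, in capitals, since the transcripts were searched for it.
miR-21-5p: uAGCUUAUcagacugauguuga
The seed complement ATAAGCT occurred in at least 1 annotated transcript of 12 of 464 well-expressed antisense genes (2.59%) and of 74 of 1589 tested antisense genes (4.66%). The 12 genes had longer transcripts (median of the longest 1653.5 bases) than those without a match (576.5 bases). Their median log2 fold change was 0.04, against -0.11 without a match. None of them passed the limma test (FDR under 0.01, 0 of 12), against 13.1% of the well-expressed antisense genes and 16.0% of all genes tested. A set of 12 genes is small for such a comparison. Of the 74 tested antisense genes with a match, 2 were called higher and 0 lower, with a median of 0.09, against -0.02 without a match. PDCD4-AS1, the antisense neighbour of PDCD4, held no match.

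Stretches of promoters are shown for 5 genes described further down, chosen after their values had been seen: 3 without shared exon bases next to a coding gene that was called too, 1 of the HOXA cluster and 1 with a called ratio to its sense gene. They were taken from RefSeq windows (GRCh38.p14; 250 bases before to 50 after the start), trimmed to the part without annotated exons, and run 5′ to 3′ on the strand of the antisense gene. Capitals mark a match to 1 of 3 motifs on either strand. GGGCGG is the GC box bound by SP1-type factors. The CCAAT box is bound by NF-Y. TATAAA is the TATA box. PDCD4-AS1 (chr10:110870855-110871154, minus strand), MAN1B1-AS1 (MAN1B1-DT in RefSeq, chr9:137086818-137086926, minus strand) and AC093673.5 (FAM131B-AS2 in RefSeq, chr7:143380976-143381079, minus strand) all rose, share no exon base with a gene on the opposite strand and start near a coding gene that also rose. HOXA-AS2 (chr7:27121669-27121916, plus strand) rose together with HOXA3, and VPS9D1-AS1 (chr16:89711645-89711855, plus strand) moved against its sense gene.
PDCD4-AS1: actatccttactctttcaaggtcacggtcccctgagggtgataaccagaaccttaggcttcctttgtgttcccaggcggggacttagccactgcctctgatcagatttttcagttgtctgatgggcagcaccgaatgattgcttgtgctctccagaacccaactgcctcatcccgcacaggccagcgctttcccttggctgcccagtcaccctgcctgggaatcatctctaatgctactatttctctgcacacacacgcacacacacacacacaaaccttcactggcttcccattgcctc
MAN1B1-AS1: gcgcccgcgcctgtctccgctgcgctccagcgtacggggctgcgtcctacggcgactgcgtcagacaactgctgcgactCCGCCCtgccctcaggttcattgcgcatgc
AC093673.5: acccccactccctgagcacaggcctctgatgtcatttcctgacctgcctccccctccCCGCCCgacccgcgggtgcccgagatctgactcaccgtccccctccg
HOXA-AS2: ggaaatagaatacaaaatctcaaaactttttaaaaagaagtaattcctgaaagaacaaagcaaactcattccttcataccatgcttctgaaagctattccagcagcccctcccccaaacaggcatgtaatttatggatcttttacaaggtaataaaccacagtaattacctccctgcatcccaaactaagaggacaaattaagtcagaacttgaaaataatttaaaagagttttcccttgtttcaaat
VPS9D1-AS1: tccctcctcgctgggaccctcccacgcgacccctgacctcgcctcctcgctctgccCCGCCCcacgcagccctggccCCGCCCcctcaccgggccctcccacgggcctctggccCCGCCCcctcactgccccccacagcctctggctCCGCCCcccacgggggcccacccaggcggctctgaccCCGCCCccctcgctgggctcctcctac
For PDCD4-AS1, AC093673.5 and HOXA-AS2, the start in RefSeq is not that of the annotation used for positions. The printed part of VPS9D1-AS1 held GGGCGG 5 times on the opposite strand, that of MAN1B1-AS1 and of AC093673.5 held it 1 time each on that strand, and no searched motif was found in those of PDCD4-AS1 and HOXA-AS2. A RefSeq window was found for 136 of the 466 genes. These windows held a median of 7.67 CG dinucleotides per 100 bases, against 4.67 over 27305 RefSeq promoters, 1 per symbol. GGGCGG was found on either strand in 55.9% of them (44.6% of all promoters), CCAAT in 31.6% (35.7%), TATAAA in 5.88% (12%) and the NRF1 motif in 3.68% (1.36%). The match of letters is a description and says nothing about binding.

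The levels ranged from the threshold to 701 FPKM, with a median of 6.03 FPKM; 191 genes were below 5 FPKM and 11 above 100 FPKM. The gene models were short (median 596 bases), so that a median of 56.2 reads per library stood behind a gene. In GENCODE 29, which holds 464 of the 466 genes, 423 shared exon bases with a gene on the opposite strand. The share was at least 99% for 118 of them and 41 genes shared none. In 137 genes the start lay up to 1000 bases from the start of a coding gene on the opposite strand (called divergent here). These include starts that face away from each other and starts of antisense genes inside the coding gene. Of the other genes, 13 ran within introns and 6 did not overlap a coding gene.

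The most abundant genes lay within exons of highly expressed housekeeping genes. RP5-940J5.9 lay entirely within exons of GAPDH, a glycolytic enzyme, and was listed at 665, 815 and 634 FPKM in Ctrl and 867, 624 and 601 FPKM in MIR21-KO. RP11-290D2.6 lay within exons of TPT1, a translationally controlled growth protein, with 354, 393 and 341 FPKM in Ctrl and 719, 625 and 483 FPKM in MIR21-KO. RP11-138I1.4 lay within exons of the ubiquitin gene UBB, at 289, 347 and 284 FPKM in Ctrl and 312, 244 and 244 FPKM in MIR21-KO. The groups overlapped for RP5-940J5.9 and RP11-138I1.4 but not for RP11-290D2.6, which did not pass the test (log2 fold change 0.73, SE 0.16, limma FDR 0.0141). RP11-498C9.2 lay within exons of P4HB, a chaperone of the endoplasmic reticulum, with 192, 217 and 182 FPKM in Ctrl against 221, 168 and 179 FPKM in MIR21-KO. RP11-386G11.10 (TUBA1B-AS1) shared 80.2% of its exon bases with the tubulin gene TUBA1B and was lower in every MIR21-KO library (147, 126 and 110 FPKM) than in Ctrl (208, 252 and 198 FPKM; log2 fold change -0.78, SE 0.14, limma FDR 0.00743). It lost this call without MIR21-KO replicate 2 or any of the Ctrl replicates (highest FDR 0.0372).

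Antisense levels went along with those of the covering gene. In the 118 genes with at least 99% of shared exon bases, the level correlated with that of the covering gene across genes (Pearson's r of log2 FPKM 0.817) at a median ratio of 0.397. Of 62 antisense genes that were covered to this extent by a gene of at least 20 FPKM, 2 had less than 0.05 times the level of that gene; the median ratio was 0.312 (lowest 0.00501, highest 2.36). Above 50 FPKM of the covering gene, all 26 antisense genes had reached the level of 3 FPKM. The points share libraries and the covered bases, and the strand setting used in counting is not given in the sources used here. Hence reads of a covered antisense gene and of its covering gene cannot be told apart in this table, and the part of such reads in the levels was not tested.

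**Figure D1:**
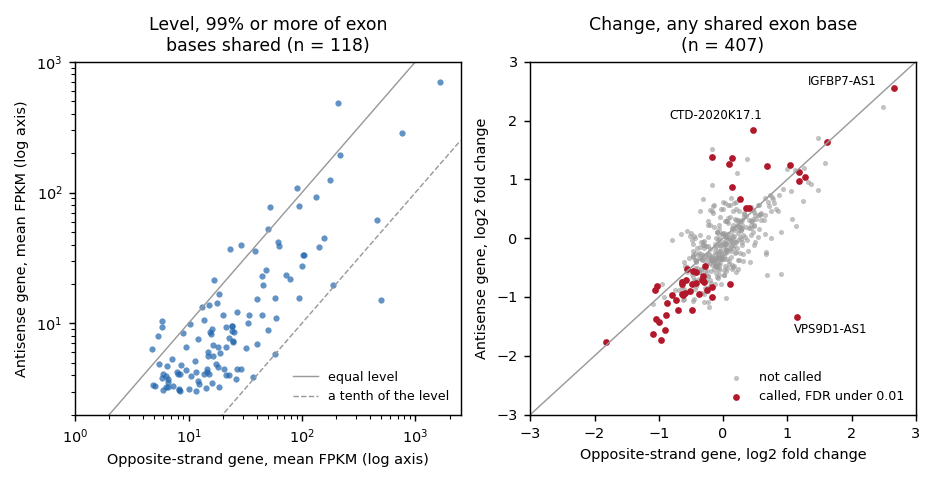
Left, mean FPKM over 6 libraries (log axes) of 118 antisense genes with at least 99% of exon bases in exons of an opposite-strand gene, against that gene; the solid line marks equal levels and the dashed line 0.1 times the level. Right, log2 fold change (MIR21-KO minus Ctrl) of 407 antisense genes with any shared exon base against the covering gene, with called genes in red; most called genes have the sign of the covering gene and VPS9D1-AS1 lies at the lower right.

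Upon MIR21 deletion, 61 of the 466 antisense genes (13.1%) passed the limma test at an FDR under 0.01, against 16.0% of all 16006 genes tested. Of these, 23 were higher in MIR21-KO and 38 were lower, whereas over all genes 7.66% were called higher and 8.38% lower. The share called was thus close to the background. A gene that reached 3 FPKM in 1 group only was higher there: the 10 calls among the 43 genes of this kind in MIR21-KO were all higher, and the 8 calls among the 44 in Ctrl all lower. In the 379 genes that reached the level in both groups, 43 were called (11.3%), 13 higher and 30 lower. Called genes were fewer among the 38 with under 20 reads on average (2 called) than among the 148 with at least 100 reads (28 called). The groups were apart in all 61 called genes and in 181 of the 466, against 48.1% of all genes tested. The number called depended on single libraries: it was 14 without MIR21-KO replicate 2, 22, 23 and 25 without Ctrl replicate 1, 2 or 3, 55 when MIR21-KO replicate 1 was left out and 87 when MIR21-KO replicate 3 was. In all 16 alternative fits, 12 genes were called: RP11-728F11.3, CTB-50L17.5, CTD-2196E14.5, VPS9D1-AS1 and RP11-132A1.4 were lower, and IGFBP7-AS1, CTD-2020K17.1, HOXA-AS2, HOTAIRM1, PDCD4-AS1, VIM-AS1 and RP11-442H21.2 were higher.

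The direction of change differed with the shared exon bases. Of the 41 genes without a shared exon base, 33 had a positive log2 fold change, with a median of 0.54, against -0.02 and 48.5% of positive values over all genes tested; 7 were called and 6 of them were higher. The median was 0.39 to 0.59 in the fits that left out 1 library. Of these 41 genes, 12 reached 3 FPKM in MIR21-KO only and 1 in Ctrl only, and the median was 0.25 in the 28 that reached it in both groups. Of the 118 genes with at least 99% of shared bases, 37 had a positive value, with a median of -0.21. Of the 118, 11 were called and 10 of them were lower. The level was reached in both groups by 102 of the 118, of which 30 had a positive value, with a median of -0.21. Between these ends, 15 of 98 genes with over 50% were called, 10 of 95 with over 25% to 50%, 9 of 83 with over 10% to 25% and 9 of 29 with up to 10%.

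**Figure D2:**
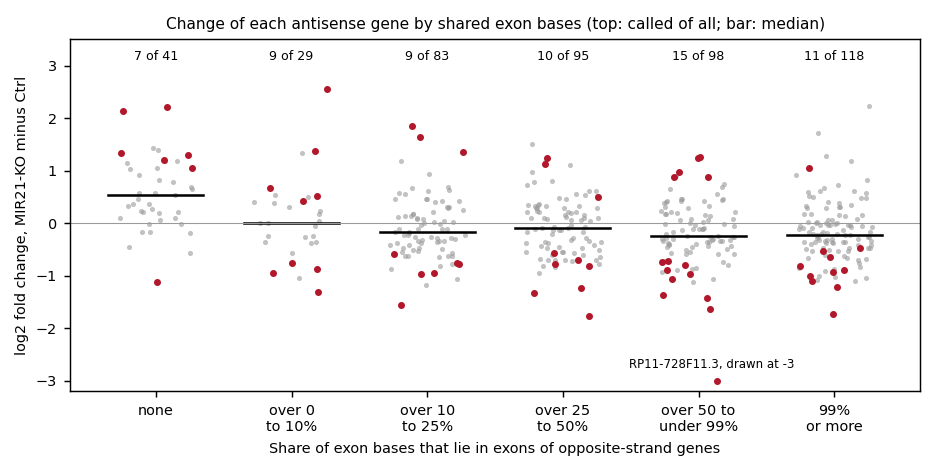
Log2 fold change (MIR21-KO minus Ctrl) of 464 antisense genes, each point a gene, by the share of exon bases that lie in exons of opposite-strand genes. Red points were called (limma FDR under 0.01), bars are medians, and the number called is given above each column; the median is 0.54 without shared bases and -0.21 at 99% or more.

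Where a covering gene could be tested, the log2 fold changes of both genes had the same sign in 303 of 407 pairs, and in 84 of the 118 pairs with at least 99% of shared bases. Over the 407 pairs, they correlated across genes with r = 0.732, and r was 0.847 in the 118 pairs with at least 99% of shared bases; the members of a pair share libraries and may share reads, and 30 antisense genes share 15 covering genes. Of the 51 called antisense genes with a tested covering gene, 48 had its sign, and for 32 the covering gene was called as well, in the same direction in 31. The log2 ratio of antisense to covering gene was tested by limma over all 1242 such antisense genes of the table, an alternative to the pairs by name that was chosen after the data had been seen. It was called for 4 pairs (0.322%), of which VPS9D1-AS1 was the 1 pair with a well-expressed antisense gene; 36 of the 407 had an unadjusted p under 0.05.

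The largest fall was that of RP11-728F11.3 (chr11:117818443-117821992, plus strand), which lies in the region of FXYD2, a regulator of the sodium pump. It was at 14.7, 11.7 and 13.0 FPKM in Ctrl, from 104, 70 and 99 reads, and was listed at 0 in all 3 MIR21-KO libraries. The groups were far apart, and the level was at least 31.5-fold lower in MIR21-KO at a floor of 3 reads per library, which covers counting error only (limma FDR 7.81e-06). FXYD2, which covers 77.7% of its exon bases, was at 0.685 FPKM in Ctrl and listed at 0 in MIR21-KO, and DSCAML1, the nearest opposite start, was at 0.0714 FPKM and 0.

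CTD-2196E14.5, 86.3% within exons of the mitotic kinase PLK1, was at 12.5, 11.2 and 10.6 FPKM in Ctrl and 4.01, 4.84 and 4.21 FPKM in MIR21-KO (log2 fold change -1.37, SE 0.11, limma FDR 0.000336), and PLK1 fell by 1.05 on the log2 scale. CTB-50L17.5 shared 14.2% of its exon bases with CHAF1A, a subunit of the chromatin assembly factor. It went from 5.94, 7.19 and 5.01 to 2.32, 1.87 and 1.76 FPKM (log2 fold change -1.56, SE 0.17, limma FDR 0.00117), and CHAF1A was at -0.90. CTB-50L17.5 reached 3 FPKM in Ctrl only, so that its direction followed from the choice of genes. RP11-973D8.4, entirely within exons of the cyclin-dependent kinase gene CDK2, fell by 1.21 (limma FDR 0.00518), and CDK2 by 0.48. It lost this call without Ctrl replicate 2, MIR21-KO replicate 1 or MIR21-KO replicate 2 (highest FDR 0.0251). PRC1-AS1, on the opposite strand of the spindle midzone gene PRC1, fell by 0.58, and lost its call without MIR21-KO replicate 2 or any of the Ctrl replicates (highest FDR 0.0198). RP11-973D8.4 and PRC1-AS1 were picked after their values had been seen.

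ABALON, which overlaps the anti-apoptotic gene BCL2L1 by 74.8% of its exon bases, was at 13.1, 14.9 and 10.9 FPKM in Ctrl and at 4.40, 4.25 and 5.71 FPKM in MIR21-KO. Thus all MIR21-KO libraries were below the lowest Ctrl library (log2 fold change -1.42, SE 0.16, limma FDR 0.00127), and BCL2L1 fell from 86.1 to 43.1 FPKM (limma FDR 0.000622). The difference between both changes did not pass (-0.42, SE 0.29, limma FDR 0.579). EZR-AS1, which overlaps the membrane linker gene EZR, went from 19.9, 30.4 and 24.3 to 7.1, 12 and 11 FPKM (log2 fold change -1.31, SE 0.23, limma FDR 0.0069), while sharing 6.63% of its exon bases. It lost its call without MIR21-KO replicate 2 or any of the Ctrl replicates (highest FDR 0.0291).

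Of the other large falls, RP11-227H15.5 went from 6.52, 9.43 and 3.87 to 1.86, 1.51 and 1.95 FPKM (log2 fold change -1.76, limma FDR 0.00657) beside the hexokinase domain gene HKDC1 (-1.83). RP11-109D20.2 went from 4.24, 6.55 and 3.43 to 1.21, 1.15 and 1.63 FPKM (-1.72, limma FDR 0.00364) within exons of the sorbitol dehydrogenase gene SORD (-0.97). RP11-804A23.2 went from 14.4, 18.2 and 9.63 to 3.52, 4.24 and 5.54 FPKM (-1.62, limma FDR 0.00467) beside CCDC86 (-1.09). These 3 genes showed no overlap between groups, but the Ctrl libraries spread widely. RP11-227H15.5 and RP11-109D20.2 reached 3 FPKM in Ctrl only, so that their direction followed from the choice of genes. RP11-227H15.5 was called only without Ctrl replicate 3 among the fits that left out 1 library (highest FDR 0.0329). RP11-109D20.2 lost its call without Ctrl replicate 1 or MIR21-KO replicate 2 (highest FDR 0.0217), and RP11-804A23.2 without Ctrl replicate 1, Ctrl replicate 2, MIR21-KO replicate 1 or MIR21-KO replicate 2 (highest FDR 0.0253).

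CTB-179K24.3 (GEMIN7-AS1) was at 4.78, 5.01 and 4.82 FPKM in Ctrl and 2.49, 1.96 and 1.69 FPKM in MIR21-KO (log2 fold change -1.23, SE 0.15, limma FDR 0.00186). It lost its call without MIR21-KO replicate 2 or any of the Ctrl replicates (highest FDR 0.0136). The gene reached 3 FPKM in Ctrl only, so that its direction followed from the choice of genes. RP11-132A1.4 (EMSLR), which shares no exon base with a gene on the opposite strand, was the 1 called fall of this kind. It was at 12, 12 and 11.9 FPKM in Ctrl and 6.45, 4.63 and 5.47 FPKM in MIR21-KO (log2 fold change -1.12, SE 0.12, limma FDR 0.00126). Its groups were far apart, with a Ctrl SD of 0.0552 FPKM.

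The largest rise was that of IGFBP7-AS1 (chr4:57109762-57205510, plus strand), whose start lies 623 bases inside that of IGFBP7, a secreted binding protein of insulin-like growth factors. It was at 3.66, 4.38 and 3.66 FPKM in Ctrl and at 24.4, 21.2 and 24.2 FPKM in MIR21-KO, a 5.97-fold rise of the means (log2 fold change 2.55, SE 0.11, limma FDR 4.21e-05). IGFBP7 rose by 2.67 (SE 0.10, limma FDR 3.47e-05), and the difference between both was -0.12 (SE 0.21, limma FDR 0.753). Only 5.40% of the exon bases of IGFBP7-AS1 lie in exons of IGFBP7.

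Rises without shared exon bases included PDCD4-AS1 (chr10:110869868-110872233, minus strand), whose start lies 438 bases inside that of PDCD4. It was at 4.14, 3.47 and 4.60 FPKM in Ctrl and at 10.7, 10.7 and 8.92 FPKM in MIR21-KO (log2 fold change 1.29, SE 0.13, limma FDR 0.000923). PDCD4 itself was at 8.76, 8.90 and 9.89 FPKM in Ctrl and 23.3, 23.4 and 25.5 FPKM in MIR21-KO (1.38, SE 0.08, limma FDR 0.000123). Both genes rose in all MIR21-KO libraries, and the difference between the changes was -0.09 (SE 0.21, limma FDR 0.81).

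MAN1B1-AS1 starts 110 bases from MAN1B1, a mannosidase of glycoprotein quality control, and was at 2.52, 1.54 and 2.15 FPKM in Ctrl and 6.78, 5.41 and 3.95 FPKM in MIR21-KO (log2 fold change 1.33, SE 0.25, limma FDR 0.00812; MAN1B1 0.55). AC093673.5 starts 585 bases from ZYX, which encodes the focal adhesion protein zyxin, and was at 5.94, 7.89 and 7 FPKM in Ctrl and 20.3, 15.3 and 13.2 FPKM in MIR21-KO (1.2, SE 0.18, limma FDR 0.00355; ZYX 0.70). The groups of both antisense genes did not overlap. MAN1B1-AS1 reached 3 FPKM in MIR21-KO only, so that its direction followed from the choice of genes. It was called only without MIR21-KO replicate 3 among the fits that left out 1 library (highest FDR 0.0384). AC093673.5 lost its call without MIR21-KO replicate 2 or any of the Ctrl replicates (highest FDR 0.0192).

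RP11-968A15.2 (SCAT2), within an intron of the heterochromatin gene CBX5, was at 1.18, 2.53 and 2.39 FPKM in Ctrl and 12.2, 7.89 and 7.03 FPKM in MIR21-KO (log2 fold change 2.13, SE 0.33, limma FDR 0.00409), while CBX5 was at -0.22 (limma FDR 0.112). It lost its call without Ctrl replicate 2, Ctrl replicate 3 or MIR21-KO replicate 2 (highest FDR 0.0203). RP4-545L17.11, within the proteasome inhibitor gene PSMF1, had the second largest value among called genes (2.21, SE 0.36, limma FDR 0.00485). It rested on 2, 3 and 3 reads in Ctrl and 20, 16 and 8 reads in MIR21-KO (0.752, 1.33 and 1.05 against 7.02, 6.25 and 2.95 FPKM). It was not called by voom on recovered reads (FDR 0.0168), and was called only without MIR21-KO replicate 3 among the fits that left out 1 library (highest FDR 0.0271). RP11-968A15.2 and RP4-545L17.11 reached 3 FPKM in MIR21-KO only, so that their direction followed from the choice of genes.

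In the HOX clusters, which encode transcription factors of body patterning, 3 antisense genes rose. HOXA-AS2 was at 1.90, 1.80 and 1.59 FPKM in Ctrl and 5.93, 5.95 and 5.23 FPKM in MIR21-KO (log2 fold change 1.64, SE 0.12, limma FDR 0.000242). HOXA3, with which it shares 11.9% of its exon bases, rose by 1.62. HOXA-AS2 reached 3 FPKM in MIR21-KO only, so that its direction followed from the choice of genes. HOTAIRM1 was at 3.83, 3.42 and 2.83 FPKM in Ctrl and 8.05, 10.6 and 8.04 FPKM in MIR21-KO (1.38, SE 0.16, limma FDR 0.00139). HOXB-AS1 was at 2.42, 4.06 and 3.19 FPKM in Ctrl and 7.53, 8.65 and 6.77 FPKM in MIR21-KO (1.25, SE 0.20, limma FDR 0.00437), beside HOXB3 (1.04). It lost its call without Ctrl replicate 1, Ctrl replicate 3, MIR21-KO replicate 1 or MIR21-KO replicate 2 (highest FDR 0.0251).

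At the intermediate filament gene VIM, a pair of antisense genes rose. VIM-AS1 was at 54.2, 58.0 and 49.1 FPKM in Ctrl and 125, 116 and 111 FPKM in MIR21-KO (log2 fold change 1.12, SE 0.09, limma FDR 0.000378), and RP11-124N14.3 rose by 0.97 (SE 0.14, limma FDR 0.00329). Both share exon bases with VIM (32.2% and 87.7%), which rose by 1.19, so that they are not independent of each other. RP11-124N14.3 lost its call without Ctrl replicate 1, Ctrl replicate 3 or MIR21-KO replicate 2 (highest FDR 0.02). RP11-442H21.2, entirely within exons of DDIT4, an inhibitor of mTOR signalling, was at 28.6, 24.2 and 22.7 FPKM in Ctrl and 55.1, 47.8 and 52.9 FPKM in MIR21-KO (1.05, SE 0.11, limma FDR 0.00091; DDIT4 1.28).

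At 3 further divergent starts, the called antisense gene had a larger value than its neighbour, but no difference that was tested passed. CTD-2020K17.1 and TMEM9B-AS1 start 778 and 336 bases inside their neighbours, and RP11-49I11.1 starts 71 bases away from its neighbour. CTD-2020K17.1 (FMNL1-DT) was at 2.62, 2.80 and 2.42 FPKM in Ctrl and 10.8, 10.3 and 8.04 FPKM in MIR21-KO (log2 fold change 1.85, SE 0.14, limma FDR 0.000269). The formin gene FMNL1 rose by 0.46 (limma FDR 0.00599), and the difference of 1.39 (SE 0.21) had an FDR of 0.0435. TMEM9B-AS1 was at 2.64, 2 and 3.02 FPKM in Ctrl and 6.06, 6.54 and 7.30 FPKM in MIR21-KO (1.36, SE 0.17, limma FDR 0.00172), with TMEM9B at 0.13 (limma FDR 0.323) and a difference of 1.23 (SE 0.25, limma FDR 0.044), and lost its call without MIR21-KO replicate 2 (FDR 0.0127). RP11-49I11.1 (COSMOC), next to the molybdenum cofactor gene MOCOS (-0.24, limma FDR 0.206), went from 2.45, 3.21 and 2.64 to 9.04, 7.11 and 4.81 FPKM (1.27, limma FDR 0.0079), was not called by voom (FDR 0.0107), and was called only without MIR21-KO replicate 3 among the fits that left out 1 library (highest FDR 0.0384). Of the 137 divergent genes, 20 were called (14.6%, close to the 16.0% of all genes tested), 13 of them higher. Among these rises, CTD-2020K17.1, TMEM9B-AS1, RP11-49I11.1, MAN1B1-AS1, HLX-AS1 and RP11-379H18.1 had Ctrl means of 1.92 to 2.77 FPKM. They reached 3 FPKM in MIR21-KO only, and all 43 genes of this kind had positive values. Their direction thus followed from the choice of genes. Among the falls, RP11-728F11.3 reached 3 FPKM in Ctrl only. The split by direction therefore depends on this choice. Where the neighbour was tested, 16 of 19 called genes had its sign, and the neighbour was called for 8, always in the same direction. Over all 133 divergent pairs with a tested neighbour, 80 had the same sign and r was 0.546 across pairs, which share libraries and in part exon bases.

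**Figure D3:**
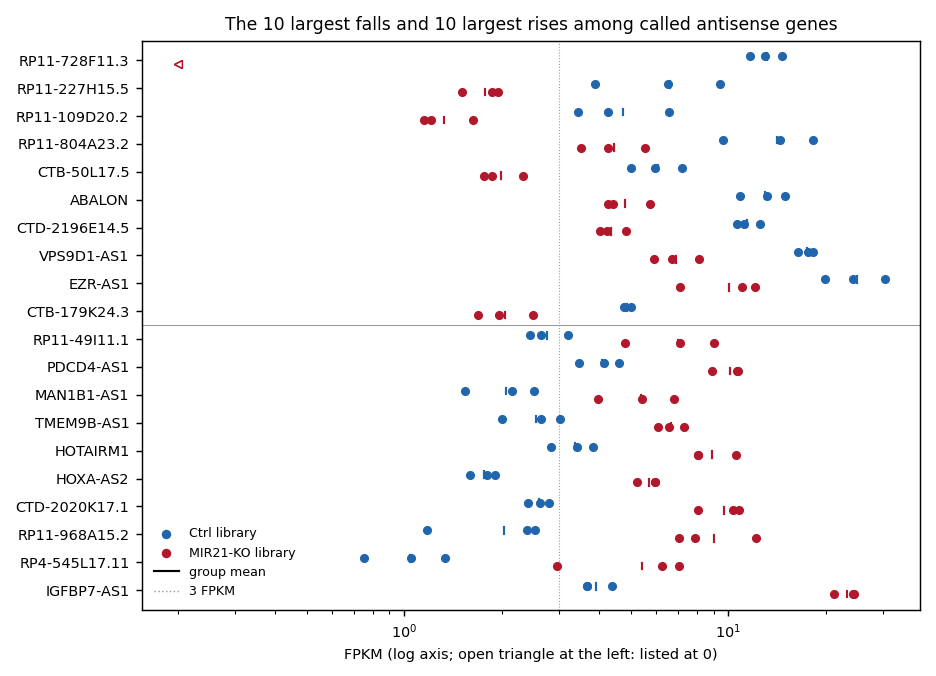
FPKM (log axis) of the 10 largest falls (top) and the 10 largest rises (bottom) among called antisense genes; each point is a library, blue for Ctrl and red for MIR21-KO, with short bars at group means and a dotted line at 3 FPKM. The groups are apart in every row, and RP11-728F11.3 is listed at 0 in the 3 MIR21-KO libraries (open triangle).

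Of the 466 genes, 80 are named after a sense gene and 77 of these genes are listed, of which 74 were tested. Over all genes tested, 16.0% were called, and over the protein-coding genes 19.7% (1066 higher and 1239 lower). Among the 74 sense genes, 20 were called (27.0%), 15 higher and 5 lower. Among their antisense genes, 13 were called (17.6%), 9 higher and 4 lower. Both were called in 8 pairs, in the same direction in 7. The median antisense level was 0.326 times that of the sense gene, and 15 antisense genes exceeded it. The changes correlated with r = 0.659 across the 74 pairs. The log2 ratio was tested over all 269 named pairs of the table and was called for 2 (0.743%).

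VPS9D1-AS1 (chr16:89711856-89718165, plus strand) was the 1 well-expressed antisense gene among them. It was at 17.7, 16.4 and 18.2 FPKM in Ctrl and 8.12, 5.92 and 6.68 FPKM in MIR21-KO (log2 fold change -1.33, SE 0.12, limma FDR 0.000635). VPS9D1, a gene with a domain of endosomal guanine exchange factors, was at 3.09, 3.15 and 3.6 FPKM in Ctrl and 8.48, 7.41 and 6.36 FPKM in MIR21-KO (1.15, SE 0.13, limma FDR 0.00138). VPS9D1 lost its call without MIR21-KO replicate 2 (FDR 0.0113). Hence the antisense gene exceeded the sense gene in every Ctrl library, whereas in MIR21-KO the levels were similar. The difference between both changes was -2.48 (SE 0.22, limma FDR 0.0026). It was -2.37 to -2.57 in the fits that left out 1 library, where the FDR was under 0.01 without MIR21-KO replicate 3 (0.00559) and 0.012 to 0.0286 without each other library. The pair shares 29.5% of the antisense exon bases.

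Other named pairs differed less. PSMA3-AS1 rose by 0.43 (limma FDR 0.00702), while the proteasome gene PSMA3 was at -0.30 (limma FDR 0.0376); the difference of 0.73 (SE 0.18) did not pass (limma FDR 0.0885). PSMA3-AS1 was called only without MIR21-KO replicate 3 among the fits that left out 1 library (highest FDR 0.0404). Several sense genes rose without a call of their antisense gene, such as COL4A2, a basement membrane collagen (1.32, with COL4A2-AS1 at 0.95), and TGFB2, a growth factor (1.03, with TGFB2-AS1 at 1.39 and a limma FDR of 0.0105). None of these differences passed the test of the ratio. Calls of coding genes named beside an antisense gene rested on single libraries as well. CHAF1A, CDK2, PRC1, TUBA1B, TPT1 and TGFB2 lost theirs without MIR21-KO replicate 2 or any of the Ctrl replicates (highest FDR 0.0137 for CHAF1A to 0.0419 for TUBA1B). MAN1B1 and FMNL1 were called only without MIR21-KO replicate 3 among these fits (highest FDR 0.037 and 0.036). ZYX lost its call without Ctrl replicate 1, Ctrl replicate 3 or MIR21-KO replicate 2 (highest FDR 0.0164), and HOXB3 without MIR21-KO replicate 2 (FDR 0.0101).

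**Figure D4:**
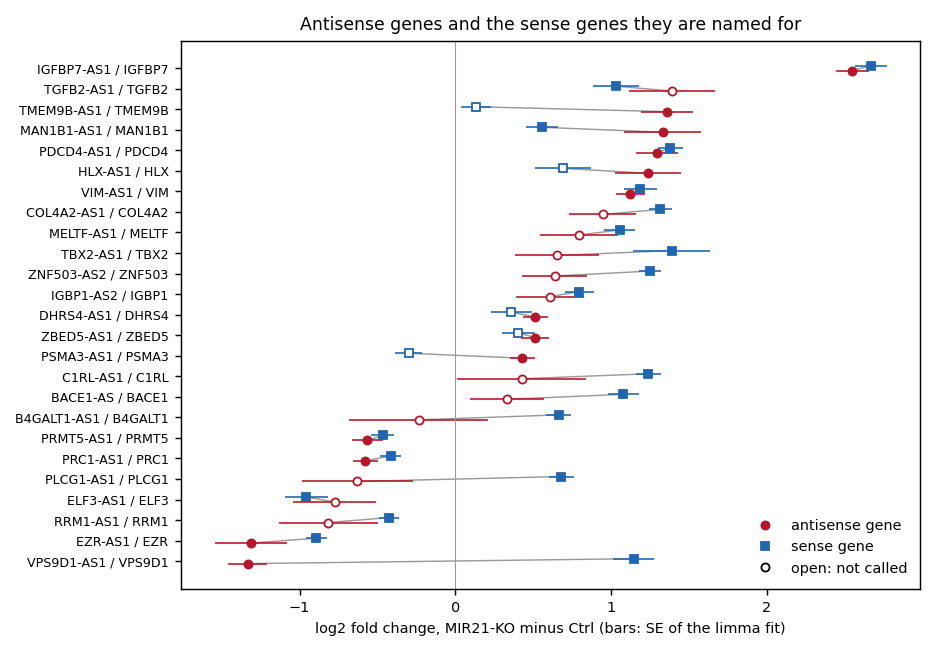
Log2 fold change (MIR21-KO minus Ctrl) with the SE of the limma fit for 25 named pairs in which either gene was called; circles are antisense genes, squares sense genes, and open symbols were not called. In most pairs both values lie close together, and VPS9D1-AS1 and VPS9D1 lie on opposite sides of 0.

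From a list of 30 antisense RNAs known from cancer or development, 21 were tested and 9 are well expressed here. HOXA-AS2, HOTAIRM1, DHRS4-AS1 (0.51, limma FDR 0.00432) and LRRC75A-AS1 (1.05, limma FDR 0.00327; not of the antisense biotype) rose, and none was called lower, so that 19.0% of the list was called, close to the 16.0% of all genes tested; 11 of the 21 had an unadjusted p under 0.05. DHRS4-AS1 and LRRC75A-AS1 lost their calls without MIR21-KO replicate 2 or any of the Ctrl replicates (highest FDR 0.0279 and 0.0216). ZFAS1, next to a start of ZNFX1, was at 18.2 and 26.4 FPKM without passing (0.52, limma FDR 0.0294). The median of the list was 0.22, against -0.02 over all genes tested.

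A list of 28 genes covered nuclear RNA decay, which limits the amount of antisense and promoter-upstream RNA. Of these, 8 were called lower and 0 higher, or 28.6%, against 16.0% of all genes tested and 8.38% called lower. An unadjusted limma p under 0.05 was found for 17, and the median was -0.35, against -0.02 over all genes tested. Of the 11719 protein-coding genes tested, 19.7% were called (1239 lower), 5756 had an unadjusted limma p under 0.05 and the median was -0.04. Exosome subunits EXOSC2 (21.9 to 11.1 FPKM, -0.98), EXOSC3 (-0.58), EXOSC8 (-0.59) and the nuclease EXOSC10 (-0.39) fell, as did the exosome helicase SKIV2L2 (-0.70), the cap-binding subunit NCBP1 (-0.63), its partner SRRT (-0.48) and the poly(A) polymerase PAPOLA (-0.79). EXOSC2 was called in all 16 alternative fits. Without MIR21-KO replicate 2 or any 1 of the Ctrl replicates, EXOSC2 was the 1 gene of this list that was called. The part of these genes in the antisense levels was not tested.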

How the data were processed

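RNA of 3 parental (Ctrl) and 3 MIR21-KO A549 cultures was extracted with TRIZOL 48 h after seeding, enriched with oligo(dT), and made into strand-specific libraries for Illumina HiSeq sequencing. Per the submitters' processing notes, cutadapt 1.14, HISAT2 2.1.0, SAMtools 1.5, featureCounts 1.5.3, edgeR 3.18.1 and the build hg38 were used. The annotation release and the strand setting of counting are not given in the sources used here. The deposited table holds FPKM values that the authors made per gene and library, with a gene length and biotype. Its columns of fold changes and p-values from the authors' own comparison were not used.

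From FPKM, gene length and the smallest steps of a library, reads were recovered; 100% of values were whole within 0.01, and the libraries summed to 10631667 to 14345209 reads. A count of 3 reads on 1 kb is 0.219 to 0.279 FPKM. Intervals and floors cover counting error only.

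The main test was limma 3.58.1 (R 4.3.3) on log2(FPKM + 0.1), with trend and robust variance, two-sided and adjusted by Benjamini-Hochberg over the 16006 genes whose mean reached 0.5 FPKM. Genes with an FDR under 0.01 were called. A fold change on the log2(FPKM + 0.1) scale understates the change of low genes. Ratios of antisense to sense genes were tested likewise on differences of log2 values, over 269 pairs by name. Alternatives were other pseudocounts, filters, scalings, levels and thresholds, voom on recovered reads, removal of GC and length trends, a replicate block and each library left out. Shared exon bases were added as an alternative after the data had been seen. The scripts were tested on simulated data.

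Positions were taken from GENCODE 29 by gene ID, and promoters and miR-21-5p from RefSeq (GRCh38.p14). The antisense genes and the gene lists were chosen with earlier results of these data known. Values per library were given for up to 10 called genes with the largest rise and 10 with the largest fall, the 5 most abundant genes, those at the level threshold and those with a called ratio, and other genes were named for their neighbours. The values of 1 coding gene are not reported here.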

Additional observations from a re-analysis of the deposited data

How the results depend on the processing

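The number of called well-expressed antisense genes was 61 and depended on the processing. It was 33 without a filter on low values, 38 without trend or robust fitting and 138 at an FDR under 0.05, and 7 or 16 when only genes with no or at most 10% of shared exon bases were counted, the latter being alternatives chosen after seeing the data. With the replicate block it was 15. Same-numbered libraries did not deviate together from their group means (correlations of -0.171, -0.018 and -0.017). Libraries of unlike number gave -0.13 to 0.155. No pairing by number was seen, but 3 libraries per group are too few to exclude one. Leaving out 1 library gave 14 to 87. Of the calls, 37.7% were higher, against 28 of 60 with voom, which shared 47 of the 61 calls, 38 of 89 after removal of GC and length trends and 21 of 66 after scaling by total reads.

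For the 20 called sense genes, the number was 9 with the replicate block, 31 after removal of GC and length trends, 37 at an FDR under 0.05 and 9 to 28 without 1 library. For the 2 called ratios by name it was 7 with a pseudocount of 1, 4 without a filter, 0 with the replicate block, 22 with voom, 12 at an FDR under 0.05, 0 to 1 without 1 library and 4 of 1242 with the gene of the most shared exon bases. For the 104 called antisense genes of any level it was 65 without a filter, 23 with the replicate block, 285 at an FDR under 0.05 and 18 to 142 without 1 library. For the 8 called genes of nuclear RNA decay it was 4 without a filter, 4 without trend or robust fitting, 1 with the replicate block, 14 at an FDR under 0.05 and 1 to 8 without 1 library. For the 4 called antisense RNAs of known interest it was 2 with the replicate block, 10 at an FDR under 0.05 and 2 to 7 without 1 library. The cause was not tested, other than that fits without a library hold fewer samples.

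Of the fold changes of genes shown per library, 352 values under alternatives kept direction and side of the threshold, 70 lost the call, 4 gained it and 6 changed sign, all with values near 0: RP11-498C9.2 ranged from -0.18 to 0.02, RP5-940J5.9 from -0.19 to 0.08 and CTD-3138B18.5 from -0.00 to 0.33 without 1 library. Of the 38 genes with under 20 reads on average, 2 were called; the part of depth in this was not tested.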

Other observations

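Below the level of 3 FPKM, 43 of 1135 tested antisense genes were called (3.79%, against 16.0% of all genes tested), 32 higher and 11 lower in MIR21-KO. TMEM92-AS1 was at 0.419, 0.248 and 0.292 FPKM in Ctrl and 1.96, 2.61 and 1.95 FPKM in MIR21-KO (log2 fold change 2.45, SE 0.25, limma FDR 0.000828), and LINC01433 was at 1.01, 0.667 and 0.839 FPKM in Ctrl and 3.9, 4.1 and 3.76 FPKM in MIR21-KO (2.11, SE 0.17, limma FDR 0.000363). Both were called in all 16 alternatives. SENCR, an antisense RNA known from endothelium and smooth muscle, was at 0, 0.287 and 0.169 FPKM in Ctrl and 2.94, 2.89 and 2.38 FPKM in MIR21-KO (limma FDR 0.00266), and lost its call without Ctrl replicate 3 or MIR21-KO replicate 2 (highest FDR 0.0199). Among the falls, B4GALT4-AS1 went from 2.17, 3.76 and 3.9 to 0.27, 0.601 and 0.567 FPKM (-2.55, limma FDR 0.00236), and lost its call without Ctrl replicate 2, Ctrl replicate 3 or MIR21-KO replicate 2 (highest FDR 0.015). These genes were picked after their values had been seen.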
